A study of Mus musculus with 21 samples.

Results

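The matrix metalloproteinases measured here are Mmp8, Mmp9, Mmp12, Mmp13, Mmp14 and Mmp19, and the inhibitors are Timp1, Timp2 and Timp3. These 9 genes, of 23250 in the deposited table, were chosen by name: each is the row whose Ensembl ID, without its version, maps to one of these symbols. All 9 passed the filter on low counts, which left 13468 genes for testing. RNA was sequenced from C57BL/6J mouse bone marrow cells grown for 7 days with GM-CSF, a cytokine under which marrow precursors become macrophage-like cells. Per the series' design text, cells of every group were deficient in the mannose receptor, a lectin that Mrc1 encodes. The groups, each of 3 libraries, were untreated cells at 0 h, cells given FcMR for 4, 12 or 24 h, and cells given an isotype control for 4, 12 or 24 h. FcMR joins the Fc part of human IgG1 to the extracellular part of the mannose receptor. Doses are not given in the sources used here.

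Matrix metalloproteinases are zinc-dependent proteases that cut collagens, elastin and other components of the extracellular matrix, and also cytokines and cell surface proteins. Most are made as inactive precursors, and tissue inhibitors of metalloproteinases (TIMPs) block the active enzymes by binding their catalytic site. Macrophages are a major source of both in inflamed tissue, and the mRNA level alone does not give the amount of active enzyme.

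Library totals ranged from 5532225 to 66729533 counts, and the level that 3 counts can show from 0.0454 to 0.559 CPM, where CPM are counts scaled to a common library total with TMM factors. Mrc1 had 0 to 11 counts per library. All 12 macrophage marker genes listed passed the filter, with a summed level of 23561 to 39386 CPM over the libraries. Lyz2 made up most of that sum, with group means of 17926 to 28184 CPM. Against isotype, 3 of the 12 were called higher with FcMR and 2 lower at 4 h (all genes 8.62% and 9.13%). The counts were 2 and 3 at 12 h (8.61% and 7.49%) and 2 and 7 at 24 h (11.4% and 9.44%). Medians on the log2 scale were 0.09, −0.22 and −0.43 (all genes −0.07, −0.02 and 0.01). The part of these differences in the members' results was not tested. Markers of neutrophils and other granulocytes (16 genes, all tested) summed to 3529 to 4415 CPM in untreated libraries and 1120 to 1460 CPM in isotype libraries at 24 h, when Chil3, which macrophages also express, made up 1071 CPM on average. The 10 dendritic cell markers, all tested, summed to 330 to 802 CPM over the libraries. At 24 h they summed to 748 to 790 CPM with FcMR and 461 to 534 CPM with isotype. Ccr7 made up most of that FcMR sum, at 672 CPM on average. At 24 h 2 of the 10 were called higher with FcMR than with isotype and 0 lower (all genes 11.4% and 9.44%). Their median log2 difference was −0.28, against 0.01 over all genes. The part of such cells in the results was not tested. The 10 fibroblast and stromal markers summed to at most 18.6 CPM, with Col1a2 at no more than 3 counts and Col3a1 at no more than 6 in any library. The labels do not say whether replicates came from separate animals or cultures, so the p-values measure only the spread between these libraries, which may be technical.

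Base composition also separated libraries of the same group. The GC tilt of a library, its excess of the 10% most GC-rich over the 10% least GC-rich genes (difference of mean log2 levels, centred on all libraries), ranged from −1.59 to 0.82. It was −0.831, −1.59 and 0.642 in isotype replicates 1 to 3 at 4 h, −0.73, 0.70 and 0.797 in FcMR replicates 1 to 3 at 12 h, and −0.346, −1.26 and 0.41 in FcMR replicates 1 to 3 at 24 h. The members span transcript GC contents from 41.7% for Mmp13 to 58.3% for Mmp14. In each of these 3 groups the libraries of higher tilt had more Mmp9 and Mmp14 and less Mmp8, Mmp12 and Mmp13. Where a fit with a GC correction changes a call on a member, its value is given beside that member.

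Mmp13, Mmp12 and Mmp8 lie on 1 stretch of chromosome 9. Their promoters are shown because these neighbours were not called alike: with FcMR Mmp13 was called higher at 4 and 12 h and lower at 24 h, and Mmp8 and Mmp12 lower at 12 and 24 h. The sequences are the 250 bases before a RefSeq start (GRCm38.p6, plus strand), at chr9:7272264-7272513 for Mmp13, chr9:7347124-7347373 for the downstream one of 2 Mmp12 starts, and chr9:7558179-7558428 for Mmp8. Capitals mark matches to the AP-1 motif, TGANTCA, searched on both strands. AP-1 is a transcription factor of Fos and Jun proteins, and its motif is a known element of metalloproteinase promoters.
Mmp13: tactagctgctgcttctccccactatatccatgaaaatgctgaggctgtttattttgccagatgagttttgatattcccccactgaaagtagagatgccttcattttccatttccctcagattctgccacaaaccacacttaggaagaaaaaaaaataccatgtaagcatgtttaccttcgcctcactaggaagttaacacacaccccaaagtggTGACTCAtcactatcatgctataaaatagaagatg
Mmp12: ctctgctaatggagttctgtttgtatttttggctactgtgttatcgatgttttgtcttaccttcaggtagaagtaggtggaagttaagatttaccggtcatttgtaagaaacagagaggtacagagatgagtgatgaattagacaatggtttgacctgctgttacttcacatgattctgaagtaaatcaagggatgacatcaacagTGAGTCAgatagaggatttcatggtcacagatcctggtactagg
Mmp8: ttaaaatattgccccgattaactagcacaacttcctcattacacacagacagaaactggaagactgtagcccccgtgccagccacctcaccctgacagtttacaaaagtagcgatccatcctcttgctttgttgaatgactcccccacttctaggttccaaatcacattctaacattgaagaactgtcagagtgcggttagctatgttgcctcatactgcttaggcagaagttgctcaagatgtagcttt
The AP-1 match begins 35 bases before the start in Mmp13 and 44 bases before it in Mmp12. The motif occurs in 6.75% of 32851 mouse promoter windows of the same length. Of the 8 windows found for 7 of the 9 members, these 2 held a match. The other 6 did not, among them the Mmp8 window and the window of the upstream Mmp12 start (chr9:7344147-7344396). A match describes letters in this window, not a site in use.

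FcMR was compared with the isotype control at each time to ask how the soluble receptor construct changed these genes. At 4 h Mmp13, Mmp14 and Timp1 were higher with FcMR. At 12 h Mmp13 and Timp1 were higher and Mmp8, Mmp12, Mmp19 and Timp2 lower. At 24 h Mmp9, Mmp14 and Timp1 were higher and Mmp8, Mmp12, Mmp13, Mmp19 and Timp2 lower. Timp1 was called higher at all 3 times, and Mmp13 was called in opposite directions at 4 and 24 h. Calls are at an edgeR adjusted p under 0.05 over all genes tested. In bulk RNA, fewer cells of a type and less RNA per cell cannot be told apart.

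Of the 9 members, 3 were called at 4 h, all higher, where 17.7% of all genes were called (8.62% higher, 9.13% lower). That split over all genes, 1161 higher and 1229 lower, turned with the scaling: it was 1412 and 839 with RLE factors, 1509 and 835 with DESeq2, and 2270 and 1414 with the GC correction. At 12 h 6 members were called, 2 higher and 4 lower, against 16.1% of all genes (8.61% higher, 7.49% lower). At 24 h 8 members were called, 3 higher and 5 lower, against 20.9% (11.4% higher, 9.44% lower). The FcMR and isotype libraries did not overlap for 4 members at 4 h, 8 at 12 h and 9 at 24 h, where the shares of all genes were 29.7%, 35.4% and 34.4%.

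**Figure D1:**
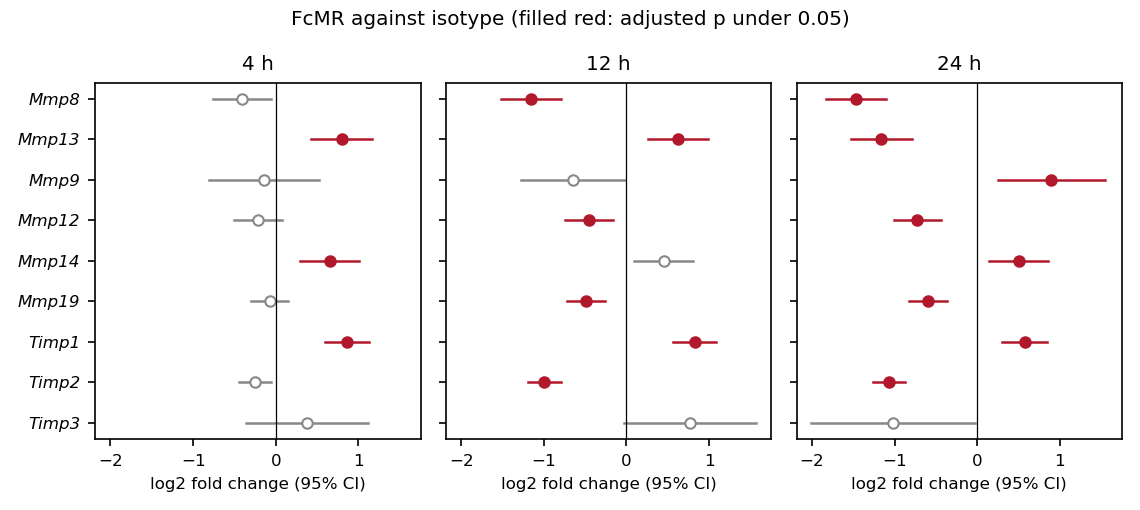
Log2 fold change of each member, FcMR against isotype, at 4, 12 and 24 h (3 libraries a group). Points are edgeR estimates, bars are approximate 95% confidence intervals, and filled red points were called. Timp1 lies right of 0 in every panel, and Mmp13 goes from 0.80 at 4 h to −1.16 at 24 h.

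Mmp13 (ENSMUSG00000050578.10, chromosome 9, 7272514 to 7283331), the main interstitial collagenase of mouse cells, was at 139.8, 173 and 172 CPM in untreated libraries. After 4 h it was at 445, 464 and 359 CPM with isotype and 685, 731 and 790.0 CPM with FcMR. Both treated groups lay above every untreated library, and the FcMR libraries lay above the isotype libraries. The log2 fold change between FcMR and isotype was 0.80 (SE 0.173, edgeR adjusted p 0.00331, n = 3 each). At 12 h Mmp13 was at 366, 417 and 365 CPM with isotype and 687, 558 and 522 CPM with FcMR. The groups again did not overlap, and the log2 difference was 0.62 (SE 0.173, edgeR adjusted p 0.0177).

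By 24 h the order of the groups had turned. Mmp13 was at 409.9, 391 and 351 CPM with isotype and 174, 222 and 117 CPM with FcMR, and the log2 difference was −1.16 (SE 0.175, edgeR adjusted p 8.31e-05). The isotype libraries held close to their earlier level, while the FcMR libraries overlapped the untreated range. The FcMR effect on Mmp13 differed over the 3 times (edgeR joint test, adjusted p 5.85e-05), as it did for 11% of all genes and 3 of the 9 members. It changed by −1.96 (SE 0.246) between 4 and 24 h and by −1.79 (SE 0.246) between 12 and 24 h on the log2 scale. The 12 h call was lost without FcMR replicate 1 (0.50, edgeR adjusted p 0.0997), isotype replicate 1 (0.59, 0.0775) or isotype replicate 3 (0.59, 0.0711). It was also lost (0.50, 0.0645) without both libraries whose title numbers break the group order, which are FcMR 12 h replicate 1 and isotype 4 h replicate 3.

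Mmp8 (ENSMUSG00000005800.3, chromosome 9, 7558456 to 7568485), the collagenase known best from neutrophil granules, was at 336, 412 and 362 CPM in untreated libraries. Levels at 4 h were 355, 424 and 242 CPM with isotype and 289, 251 and 227 CPM with FcMR. The groups overlapped through isotype replicate 3, and the log2 difference of −0.41 (SE 0.168, 95% interval −0.76 to −0.06) was not called (edgeR adjusted p 0.105). Without that library it was −0.61 and was called (edgeR adjusted p 0.00718), while without isotype replicate 2 it was −0.19 (0.553) and with the GC correction −0.23 (0.0804).

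At 12 h Mmp8 was at 366, 352 and 333 CPM with isotype and 187, 151 and 134 CPM with FcMR. Every FcMR library was below every isotype and untreated library, and the log2 difference was −1.15 (SE 0.17, edgeR adjusted p 8.97e-05). After 24 h it was at 1189.5, 1244 and 1310.3 CPM with isotype and 433, 526 and 394 CPM with FcMR. Isotype libraries at 24 h stood above all others, and the log2 fold change was −1.47 (SE 0.171, edgeR adjusted p 4.74e-06). The FcMR effect on Mmp8 differed over time (edgeR joint test, adjusted p 0.0163) and changed by −1.06 (SE 0.238) between 4 and 24 h. This call over time was lost without FcMR 4 h replicate 1 (edgeR adjusted p 0.0735) or replicate 2 (0.0519).

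The level of Mmp8 relative to Mmp13, per kb of mean annotated transcript length within each library, was 2.53 ± 0.188 (SD, n = 3) in untreated cells. It was 0.876 ± 0.132 with isotype and 0.387 ± 0.0744 with FcMR at 4 h, and 1.01 ± 0.0863 and 0.294 ± 0.00881 at 12 h. FcMR libraries were lower than isotype libraries without overlap at both times. At 24 h the ratio was 3.61 ± 0.47 with isotype and 3.02 ± 0.591 with FcMR, and the groups overlapped.

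Mmp12 (ENSMUSG00000049723.14, chromosome 9, 7344381 to 7369499), the macrophage elastase, was the most abundant member per length in every group, with group means of 4189 to 8282 CPM per kb. Among all genes it ranked between 4 and 11 per length over the libraries. No other member exceeded a group mean of 515 CPM per kb, reached by Mmp8 with isotype at 24 h. Mmp12 was at 8256, 9428 and 8472 CPM in untreated libraries. At 4 h it was at 14419, 16279 and 11758 CPM with isotype and 12782, 12012 and 11803 CPM with FcMR, groups that overlapped (log2 difference −0.21, 95% interval −0.50 to 0.07, edgeR adjusted p 0.317). It was called (−0.33, edgeR adjusted p 0.0495) without both libraries out of title order, while without isotype replicate 2 it was −0.07 (0.84), without FcMR replicate 3 −0.14 (0.675) and with the GC correction −0.05 (0.558).

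At 12 h Mmp12 was at 12727, 13044 and 13621 CPM with isotype and 11071, 9069 and 8585 CPM with FcMR. Levels at 24 h were 17048, 16232 and 18433 CPM with isotype and 10018, 12742 and 8545 CPM with FcMR. FcMR libraries were below isotype libraries at both times, with log2 differences of −0.46 (SE 0.136, edgeR adjusted p 0.0276) and −0.72 (SE 0.137, edgeR adjusted p 0.000758). The 12 h call was lost without the expression filter (−0.42, edgeR adjusted p 0.0848) and when FcMR replicate 2 (0.107) or 3 (0.13) or isotype replicate 1 (0.0637), 2 (0.0722) or 3 (0.0976) was left out. A change of the FcMR effect on Mmp12 over time was not called (edgeR joint test, adjusted p 0.206), but was with the GC correction (−0.79 between 4 and 24 h, edgeR adjusted p 8.81e-07). The gene overlaps Mmp1b on the opposite strand, and the library kit does not mark strand.

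Mmp9 (ENSMUSG00000017737.2, chromosome 2, 164940780 to 164955850), gelatinase B, which cuts denatured collagen and type IV collagen, was at 47.8, 35.8 and 54.3 CPM in untreated libraries. After 4 h it was at 10.6, 9.38 and 20.7 CPM with isotype and 13.2, 12.1 and 12.1 CPM with FcMR. After 12 h it was at 17.7, 17.8 and 20.1 CPM with isotype and 8.15, 11.8 and 15.5 CPM with FcMR. The groups overlapped at 4 h and not at 12 h. The log2 differences were −0.14 (95% interval −0.80 to 0.52, edgeR adjusted p 0.824) at 4 h and −0.64 (−1.27 to −0.01, edgeR adjusted p 0.177) at 12 h, and neither was called. Without isotype 4 h replicate 3 the 4 h difference was 0.32 (edgeR adjusted p 0.498), of the opposite sign. With the GC correction the 12 h difference was −0.53 and was called (edgeR adjusted p 0.041). Limma on the deposited normalized values called both times, at −0.50 (limma adjusted p 0.0426) and −0.52 (limma adjusted p 0.0411).

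At 24 h Mmp9 was at 12.9, 12.4 and 14.3 CPM with isotype and 20.1, 16.6 and 37.8 CPM with FcMR. FcMR replicate 3 was the highest and also had the highest GC tilt of its group. The log2 fold change was 0.90 (SE 0.306, edgeR adjusted p 0.0447), and 0.98 with the GC correction (edgeR adjusted p 0.000573). It was 0.48 (edgeR adjusted p 0.222) without FcMR replicate 3, and the call was also lost without isotype replicate 1 (0.112), 2 (0.116) or 3 (0.0759), without the filter (0.058) and in a fit of the 6 libraries alone (0.0845). The change of its FcMR effect over time missed the threshold (edgeR joint test, adjusted p 0.0582). It was past it with the GC correction (0.00105), DESeq2 (0.0164) and limma (0.000123), without both libraries out of title order (0.0371), and without isotype 4 h replicate 3 (0.021) or replicate 2 (0.0499), FcMR 12 h replicate 3 (0.033) or FcMR 24 h replicate 2 (0.0233).

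Mmp14 (ENSMUSG00000000957.11, chromosome 14, 54431612 to 54445364), a membrane-anchored protease that also activates the Mmp2 precursor together with Timp2, was at 113, 114 and 122 CPM in untreated libraries. Levels at 4 h were 333, 262 and 439 CPM with isotype and 529, 548 and 554 CPM with FcMR. Levels at 12 h were 478, 514 and 517 CPM with isotype and 537, 740.4 and 789 CPM with FcMR. At both times the FcMR libraries lay above the isotype libraries, and both lay above the untreated ones. The log2 difference was 0.66 at 4 h (SE 0.17, edgeR adjusted p 0.0114) and 0.45 at 12 h (SE 0.169, edgeR adjusted p 0.0822), the latter not called. FcMR 12 h replicate 1, with the low GC tilt, was the lowest of its group, and without it the 12 h difference was 0.60 (edgeR adjusted p 0.0183). With the GC correction it was 0.73 (edgeR adjusted p 0.000696), and DESeq2 gave 0.47 (DESeq2 adjusted p 0.0336).

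At 24 h Mmp14 was at 279, 289 and 326 CPM with isotype and 424, 336 and 510.0 CPM with FcMR. The groups did not overlap, and the log2 difference was 0.51 (SE 0.169, edgeR adjusted p 0.0413). The call was lost without FcMR replicate 1 (0.0765) or 3 (0.143), where replicate 3 alone moved the value to 0.36, without isotype replicate 1 (0.119) or 2 (0.0981), without the filter (0.0611) and in a fit of the 6 libraries alone (0.0708). The 4 h call was lost in a fit of its 6 libraries alone (edgeR adjusted p 0.0782). With the GC correction the differences were 0.57 at 4 h and 0.74 at 24 h, both called (edgeR adjusted p 0.00557 and 0.000538).

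Mmp19 (ENSMUSG00000025355.7, chromosome 10, 128790910 to 128800824), a secreted protease of broad matrix specificity, was at 922, 1192 and 1348 CPM in untreated libraries, its highest group. At 4 h it was at 479, 428 and 484 CPM with isotype and 388, 437 and 498 CPM with FcMR. These groups overlapped and the difference was not called (log2 −0.07, 95% interval −0.30 to 0.15, edgeR adjusted p 0.713). At 12 h it was at 160.4, 163 and 167 CPM with isotype and 116, 118 and 115 CPM with FcMR. At 24 h it was at 194, 194 and 197 CPM with isotype and 128, 131 and 127 CPM with FcMR. Replicates at these times lay close together, and FcMR libraries were lower, with log2 differences of −0.49 (SE 0.109, edgeR adjusted p 0.00378) and −0.60 (SE 0.109, edgeR adjusted p 0.000582). The change of the FcMR effect over time was not called (edgeR joint test, adjusted p 0.0638), but was called with DESeq2 (0.00914), limma on the deposited normalized values (0.0325), RLE factors (0.0373), the GC correction (0.0131), only the libraries compared (0.00503) and without FcMR 4 h replicate 1 (0.0476). Mmp19 overlaps Tmem198b and the antisense transcript Gm47093, so reads from these may be counted with it.

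**Figure D2:**
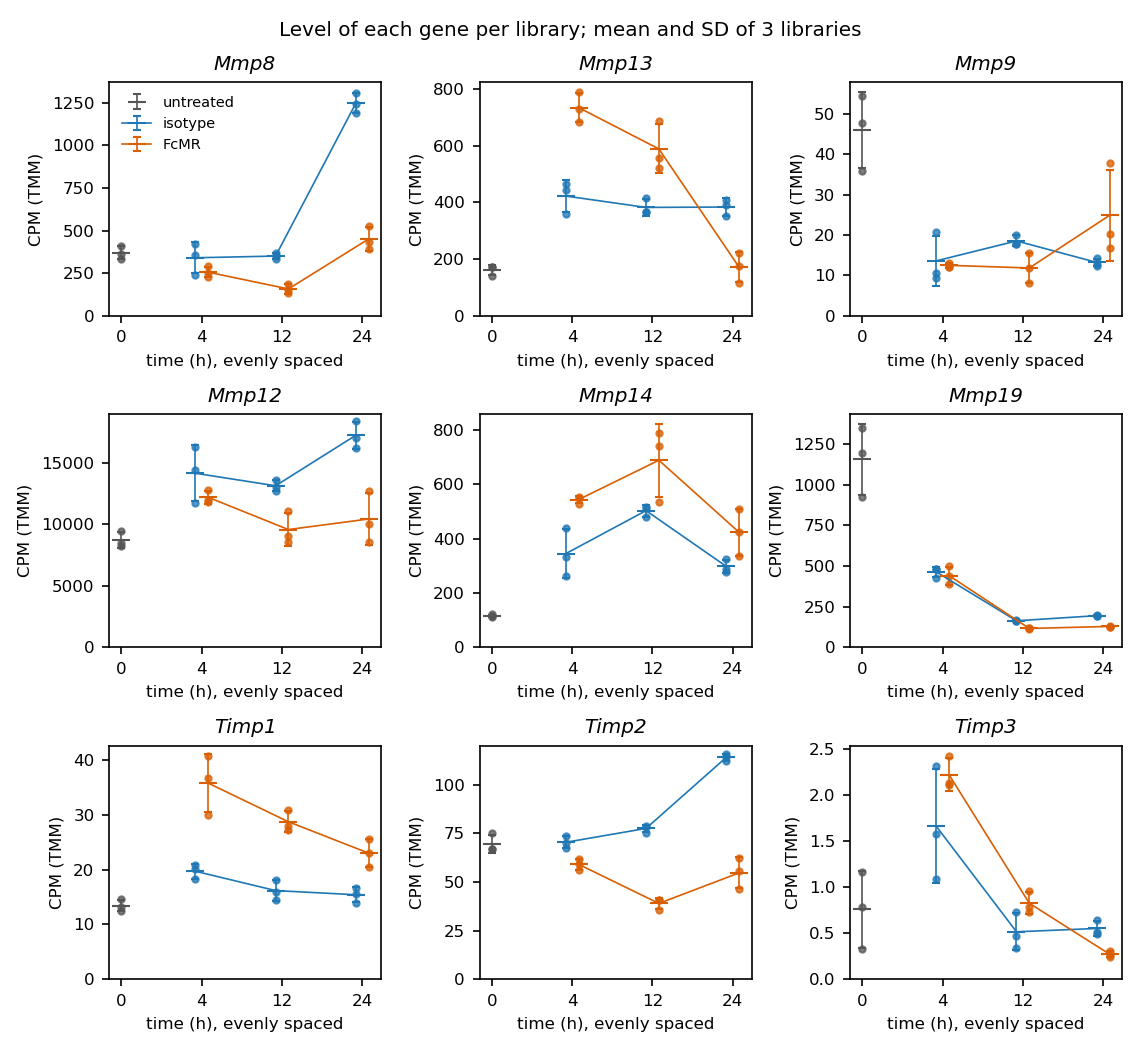
Level of each member in CPM (linear axis from 0) against time in hours (times evenly spaced), with 1 point per library and the mean and SD of 3 libraries per group, lines joining the means. Mmp19 is far below the untreated libraries in both treated groups at 12 and 24 h, Timp1 is higher with FcMR at each time, and Mmp13 with FcMR at 24 h is back among the untreated libraries.

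Among the inhibitors, Timp1 rose and Timp2 fell with FcMR. Timp1 (ENSMUSG00000001131.11, chromosome X, 20870166 to 20874735), a secreted inhibitor induced in many cells by inflammatory signals, was at 12.5, 14.6 and 13.2 CPM in untreated libraries. After 4 h it was at 20.1, 18.2 and 20.9 CPM with isotype and 30.1, 40.7 and 36.7 CPM with FcMR. After 12 h it was at 14.4, 16 and 18.2 CPM with isotype and 27.3, 28.0 and 31.0 CPM with FcMR. The FcMR libraries were above every isotype library of the same time. At 24 h Timp1 was at 15.6, 13.9 and 16.7 CPM with isotype and 23.0, 20.5 and 25.6 CPM with FcMR. The log2 fold changes were 0.86 (SE 0.127), 0.83 (SE 0.125) and 0.57 (SE 0.128) at 4, 12 and 24 h, with edgeR adjusted p of 0.000128, 0.000116 and 0.00307. A change of this effect over time was not called (edgeR joint test, adjusted p 0.512). Timp1 lies within Syn1, a neuronal gene.

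Timp2 (ENSMUSG00000017466.9, chromosome 11, 118301069 to 118355740), an inhibitor expressed widely and known for its part in Mmp2 activation, was at 66.8, 75.2 and 66.8 CPM in untreated libraries. Levels at 4 h were 67.5, 70.2 and 73.6 CPM with isotype and 59.4, 61.7 and 56.1 CPM with FcMR. The groups did not overlap, but the log2 difference of −0.25 (SE 0.0931, edgeR adjusted p 0.0725) was not called. With the GC correction it was −0.31 and was called (edgeR adjusted p 0.0429).

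At 12 h Timp2 was at 78.3, 78.9 and 75.4 CPM with isotype and 35.5, 40.9 and 40.5 CPM with FcMR. After 24 h it was at 112, 114 and 116 CPM with isotype and 55.6, 46.3 and 62.2 CPM with FcMR. FcMR libraries were below the untreated level at both times, and isotype libraries were above it. The log2 fold changes were −0.99 (SE 0.093, edgeR adjusted p 6.13e-07) and −1.07 (SE 0.0931, edgeR adjusted p 1.59e-07), and limma on the deposited normalized values gave −0.66 at 12 h. The FcMR effect differed over time (edgeR joint test, adjusted p 0.000697), by −0.81 (SE 0.131) between 4 and 24 h. Timp2 shares part of its span with Cep295nl on the same strand.

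Timp3 (ENSMUSG00000020044.13, chromosome 10, 86300372 to 86349506), an inhibitor that binds to the matrix, was near the limit of detection, with 2 to 56 counts per library. It was at 1.17, 0.782 and 0.327 CPM in untreated libraries. At 4 h it was at 1.58, 1.08 and 2.32 CPM with isotype and 2.12, 2.11 and 2.42 CPM with FcMR, and at 12 h at 0.337, 0.733 and 0.469 CPM against 0.954, 0.786 and 0.729 CPM. Levels at 24 h were 0.49, 0.643 and 0.515 CPM with isotype and 0.308, 0.257 and 0.244 CPM with FcMR. No difference was called by edgeR: the log2 values were 0.37 (95% interval −0.36 to 1.11), 0.77 (−0.03 to 1.57) and −1.02 (−2.01 to −0.02), with edgeR adjusted p of 0.528, 0.207 and 0.182. Such intervals are approximate: the 24 h one excludes 0, although the unadjusted edgeR p was 0.0601. Limma on the deposited normalized values called the 24 h difference (−1.32, limma adjusted p 0.0498), and the 4 h value was 0.20 (edgeR adjusted p 0.814) without isotype replicate 2 and 0.71 (0.222) without replicate 3. Timp3 lies within Syn3.

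Per kb within each library, the level of Timp1 relative to Timp2 was 0.834 ± 0.0205 (SD, n = 3) in untreated cells. With isotype it was 1.21 ± 0.0835, 0.904 ± 0.125 and 0.584 ± 0.0504 at 4, 12 and 24 h. With FcMR it was 2.62 ± 0.376, 3.20 ± 0.203 and 1.83 ± 0.0738, above the isotype libraries without overlap at each time. Mmp14 relative to Timp2 was 2.13 ± 0.194 in untreated cells. It was 6.21 ± 1.42, 8.26 ± 0.477 and 3.32 ± 0.221 with isotype and 11.7 ± 0.73, 22.3 ± 2.86 and 9.78 ± 0.604 with FcMR, again without overlap at any time. These ratios combine differences already given and are descriptions with no test.

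**Figure D3:**
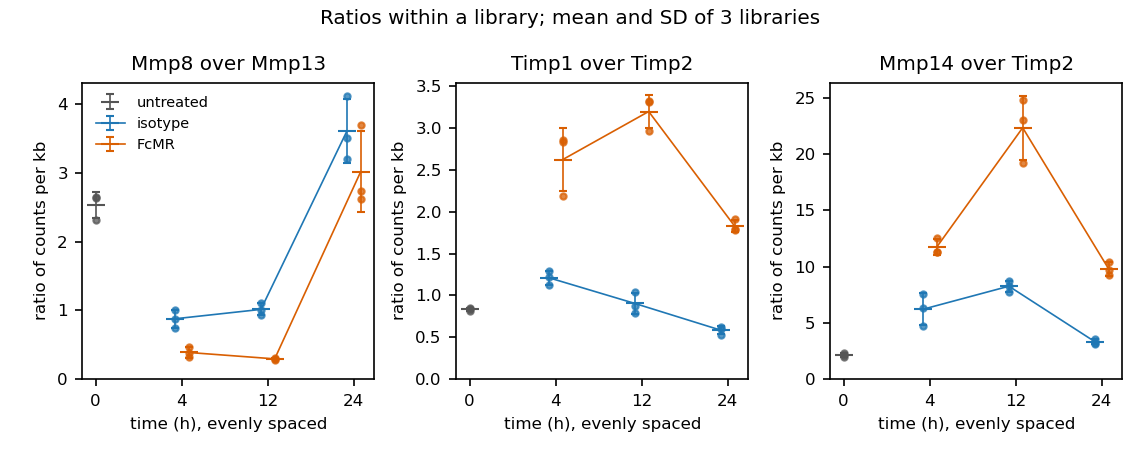
Within-library ratios of levels per kb (linear axis from 0) against time in hours (times evenly spaced), with 1 point per library and the mean and SD of 3 libraries per group. Timp1 over Timp2 and Mmp14 over Timp2 are higher with FcMR than with isotype at 4, 12 and 24 h, while Mmp8 over Mmp13 is lower with FcMR at 4 and 12 h and overlaps at 24 h.

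Isotype libraries were compared with the untreated libraries of 0 h. Untreated cells were analysed here at 0 h and at no later time, so the control protein and the time in culture cannot be told apart. This comparison shares its isotype libraries with the FcMR comparison, so values of the 2 are linked. Mmp12, Mmp13 and Mmp14 were higher and Mmp9 and Mmp19 lower with isotype at all 3 times, Mmp8 and Timp2 were higher at 24 h, and Timp1 and Timp3 were higher at 4 h. The members called were 7 at 4 h, 5 higher and 2 lower, against 35.6% of all genes (20.4% higher, 15.2% lower). At 12 h they were 5, 3 higher and 2 lower, against 41.6% (22% higher, 19.6% lower), and at 24 h 7, 5 higher and 2 lower, against 42.2% (21.3% higher, 20.9% lower). Members whose groups did not overlap were 6, 6 and 7, against 42.4%, 61.8% and 62.7% of all genes.

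Mmp19 was lower with isotype, at −1.31, −2.82 and −2.57 on the log2 scale at 4, 12 and 24 h (edgeR adjusted p 3.75e-08, 3.05e-12 and 1.17e-11). Mmp9 was lower too, at −1.74, −1.30 and −1.80 (edgeR adjusted p 0.000244, 0.00169 and 0.000121). Of 16 granulocyte markers, 8 were called lower with isotype at 4 h, 15 at 12 h and 16 at 24 h. The shares of all genes called lower were 15.2%, 19.6% and 20.9%. The markers' medians were −0.83, −2.43 and −3.27. Their part in the fall of Mmp9 was not tested. Mmp8 was 1.75 higher at 24 h (edgeR adjusted p 2.29e-07), when all 16 markers were called lower. Mmp8 differed by −0.12 (95% interval −0.47 to 0.23, edgeR adjusted p 0.608) at 4 h and −0.08 (−0.43 to 0.27, 0.751) at 12 h. The 4 h value of Mmp8 rested on the setting: it was −0.39 and called with the GC correction (edgeR adjusted p 0.00264), and without isotype replicate 3 it was 0.08 (0.69) and without replicate 2 −0.34 (0.158). Between FcMR and isotype, the 16 markers gave 0 calls at 4 h, where 17.7% of all genes were called. There were 2 calls at 12 h, both up with FcMR (all genes 16.1%). The 24 h calls were 1 up and 2 down (all genes 11.4% and 9.44%). Median differences of these markers were 0.02, 0.16 and −0.49, beside −0.07, −0.02 and 0.01 over all genes. The part of granulocytes in the FcMR results was not tested.

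Mmp14 rose by 1.57, 2.11 and 1.36 with isotype (edgeR adjusted p 1.23e-06, 2.64e-08 and 5.10e-06), Mmp13 by 1.39, 1.24 and 1.25 (6.50e-06, 1.67e-05 and 1.59e-05) and Mmp12 by 0.70, 0.59 and 0.98 (0.000594, 0.00198 and 1.48e-05). The 4 h value of Mmp12 was 0.43 with the GC correction. Timp1 was higher by 0.55 at 4 h (edgeR adjusted p 0.00267), with 0.27 at 12 h (0.0973) and 0.19 at 24 h (0.242) not called, although the 12 h value was called (0.38, 0.0434) without isotype replicate 1. Timp2 was higher by 0.71 at 24 h (edgeR adjusted p 6.23e-06), with 0.02 (0.911) and 0.16 (0.194) at the earlier times. Its 4 h value was 0.29 and called with the GC correction (edgeR adjusted p 0.0421). Timp3 was higher by 1.17 at 4 h (edgeR adjusted p 0.0214), where the groups overlapped. The call was lost without isotype replicate 3 (0.83, 0.124) or untreated replicate 2 (1.2, 0.0535) or 3 (0.82, 0.0912). It was also lost without the filter (1.07, 0.0637), with only the libraries compared (1.16, 0.135) and without both libraries out of title order (0.84, 0.128). At 12 and 24 h Timp3 was at −0.65 (edgeR adjusted p 0.196) and −0.44 (0.435), not called. The 12 h value was −0.98 (0.0423) without untreated replicate 3, −0.28 (0.627) without untreated replicate 1 and −0.42 (0.489) without isotype replicate 1, and the 24 h value was −0.08 (0.913) without untreated replicate 1.

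**Figure D4:**
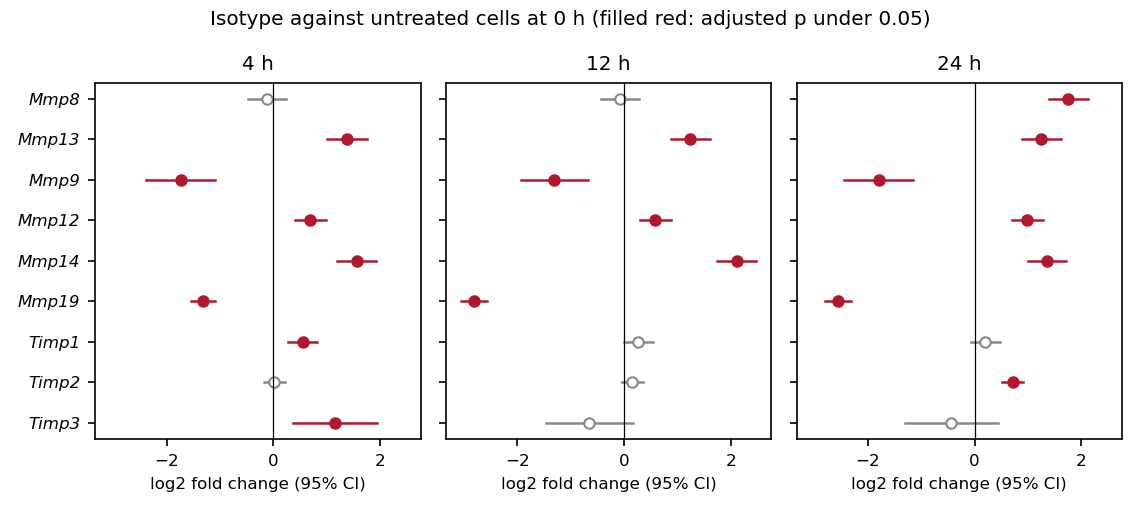
Log2 fold change of each member, isotype against the untreated libraries of 0 h, at 4, 12 and 24 h (3 libraries a group). Points are edgeR estimates, bars are approximate 95% confidence intervals, and filled red points were called. Mmp9 and Mmp19 lie left of 0 and Mmp12, Mmp13 and Mmp14 right of 0 in every panel.

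The members varied over the 7 group means by between 1.98-fold for Mmp12 and 9.91-fold for Mmp19. The highest mean was 7.93 times the lowest for Mmp8, 5.93 times for Mmp14, 4.55 times for Mmp13 and 3.89 times for Mmp9. Timp1 and Timp2 varied 2.67-fold and 2.93-fold, and Timp3 8.22-fold, on only 2 to 56 counts per library. In the order of groups, Mmp8 had FcMR at 12 h lowest and isotype at 24 h highest, each apart from its neighbour, while the 5 groups between them each overlapped the next. Mmp12 ran from untreated to isotype at 24 h with each neighbouring pair overlapping. Mmp13 had untreated and FcMR at 24 h lowest, overlapping each other, and FcMR at 4 and 12 h highest. Mmp19 had untreated highest and FcMR at 12 h lowest, and only FcMR and isotype at 4 h overlapped as neighbours. Mmp9 had FcMR at 12 h lowest and untreated highest, with each neighbouring pair overlapping, and Mmp14 had untreated lowest and FcMR at 12 h highest. Timp1 had untreated lowest and FcMR at 4 h highest, and Timp2 had FcMR at 12 h lowest and isotype at 24 h highest and apart from the rest.

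The 2 genes most like each member were taken by Pearson correlation of log2 CPM over the 7 group means, among 11428 candidate genes, as a description. For Mmp12 they were Plau (0.994) and Igf1 (0.989), for Mmp13 Camk2d (0.945) and Tmem229b (0.943), and for Mmp8 Zfp318 (0.988) and Fgd4 (0.987). Mmp14 was closest to Fkbp9 (0.997) and Nudt17 (0.994), Mmp19 to Rpl32 (0.999) and Klk1b27 (0.994), and Mmp9 to Map1lc3b (0.974) and Pitpnc1 (0.956). Timp1 was closest to Lcp1 (0.992) and Gpat4 (0.988), Timp2 to Rgs2 (0.992) and Mamdc2 (0.981), and Timp3 to Ccl12 (0.993) and Ptger4 (0.979). All points share the same 21 libraries.

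Around the members on chromosome 9 lie Mmp3, Mmp10, Mmp27, Mmp20 and Mmp7. Mmp3 had 0 to 32 counts per library, Mmp10 1 to 16, Mmp20 0 to 11 and Mmp7 0 to 3, and these 4 did not pass the filter. Mmp27 did, and was lower with FcMR at 24 h (log2 −1.22, edgeR adjusted p 0.0134). Of 18 other listed genes, metalloproteinases and Timp4, 4 passed the filter, with 2 called higher at 4 h, 1 lower at 12 h, and 1 higher and 2 lower at 24 h (medians 0.58, −0.45 and −0.51, against −0.07, −0.02 and 0.01 over all genes). The shares of all genes called were 17.7%, 16.1% and 20.9%. Mmp2, gelatinase A, averaged 26 ± 2.08 CPM under FcMR against 11.3 ± 3.37 under isotype at 4 h (log2 1.21, SE 0.195, edgeR adjusted p 0.000279), and 53.9 ± 9.96 against 21.1 ± 2.28 CPM at 24 h (1.34, SE 0.185, 3.15e-05). Mmp23 was lower at 12 h (−1.91, edgeR adjusted p 0.00207) and 24 h (−1.87, 0.00397), at 0.935 ± 0.492 CPM against 3.55 ± 0.429 CPM at 12 h.

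Of 14 tested genes that activate or regulate metalloproteinases, 8 were higher and 1 lower with FcMR at 4 h, where the shares of all genes were 8.62% and 9.13%. At 12 h the counts were 6 and 1 (all genes 8.61% and 7.49%), and at 24 h 7 and 1 (11.4% and 9.44%). The medians of the list were 0.81, 0.19 and 0.53, against −0.07, −0.02 and 0.01 over all genes. Plau, the urokinase that generates plasmin, was lower, at −0.33, −1.02 and −1.73 on the log2 scale at 4, 12 and 24 h (edgeR adjusted p 0.0423, 2.38e-06 and 2.91e-09), at 72.5 ± 1.89 against 239.9 ± 7.97 CPM at 24 h. The summed level of the fibroblast and stromal markers also differed. It was 8.94 to 10.9 CPM with FcMR and 6.18 to 7.07 with isotype at 4 h. At 12 h it was 12.8 to 18.6 against 3.37 to 4.53 CPM, and at 24 h 9.37 to 12.2 against 1.39 to 2.26. Pdgfrb made up most of it with FcMR at 12 h, at 11.6 CPM on average. Over all genes 8.62%, 8.61% and 11.4% were called higher at 4, 12 and 24 h. Of the 4 markers tested, Pdgfrb was called higher at each time, Dcn at 12 and 24 h, and Col1a1 and Thy1 at none. The rest did not pass the filter, with Lum highest with FcMR at 12 h and Pdgfra and Cxcl12 lowest with FcMR at 24 h. The part of stromal cells in the results for Mmp2, Mmp14 and Timp1 was not tested.

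Of 13 ADAM and ADAMTS proteases tested, those called with FcMR were 2 higher and 2 lower (4 h), 2 and 1 (12 h), and 3 and 2 (24 h) (medians −0.06, −0.03 and −0.09). Over all genes 17.7%, 16.1% and 20.9% were called at these times. Adamts4, an aggrecanase, was higher at 4 h (2.74, edgeR adjusted p 0.000109) and 12 h (2.44, 0.000272), at 4.70 ± 0.537 against 0.681 ± 0.214 CPM at 4 h. Adam12 was lower at 4 h (−0.90, edgeR adjusted p 0.048) and higher at 24 h (1.36, 0.0037), Adam8 lower at 12 h (−0.97, 0.000534) and Adam33 lower at 24 h (−2.36, 0.00389). Of 14 extracellular cathepsins and cystatins, 1 was higher at 4 h, 1 higher and 1 lower at 12 h, and 1 higher and 5 lower at 24 h (medians 0.14, 0.02 and −0.27). The same shares of all genes apply to this list. Cst7, cystatin F, rose by 0.88, 1.35 and 2.34 (edgeR adjusted p 0.00523, 3.57e-05 and 6.19e-08). Ctsh was lower at 12 h (−0.24, edgeR adjusted p 0.032) and Ctsl, cathepsin L, at 24 h (−1.05, 3.66e-08), at 737 ± 14.1 against 1525 ± 23.7 CPM.

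Of 10 matrix and substrate genes tested, 3 were called higher at 4 h, 3 higher and 1 lower at 12 h, and 2 higher and 3 lower at 24 h (medians 0.44, 0.15 and 0.15). Called shares over all genes were 17.7%, 16.1% and 20.9%. Tnc, tenascin C, was higher at 4 h (1.16, edgeR adjusted p 0.00723) and lower at 12 h (−1.04, 0.0141) and 24 h (−1.64, 0.0016). Col4a1, a chain of type IV collagen, was higher at 12 h (2.46, edgeR adjusted p 0.00221), at 6.95 ± 3.14 against 1.12 ± 0.64 CPM, and its partner Col4a2 at 24 h (1.97, 0.00733).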

How the data were processed

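Per the labels' protocols, libraries were made with a TruSeq RNA v2 kit and read as 75 bp single-end reads, 3 per group. The submitters' processing notes name CASAVA 1.8.2, kallisto 0.44.0, DESeq2 and the builds mm10 and GRCm38, with no role given for each. The authors deposited a raw table of whole numbers, treated here as estimated counts because the second deposited table, a normalized signal, equals it divided by a factor that varies by gene and library. That factor has a geometric mean within 0.001 of 1 for all 13034 genes without a 0. Values were whole already, so rounding changed none, and the planned count test was kept.

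Gene IDs were matched without version to GENCODE M21 (GRCm38): 23187 have a symbol, and 21250 match with their version. Levels per kb use the mean length of a gene's protein-coding transcripts. Such estimates may shift reads between similar or overlapping genes. The main test was edgeR 4.0.16 (R 4.3.3), a quasi-likelihood fit of all 21 libraries with a coefficient per group, TMM scaling, filterByExpr with a minimum of 10 counts and Benjamini-Hochberg adjustment over 13468 genes. The test over time asks jointly whether the FcMR effect differs between 4, 12 and 24 h. The fit was also run on simulated counts with the same spread for every gene and no GC tilt. That run cannot show how it performs on libraries that differ as these do. Replicates correlated at r = 0.92 to 0.987 and were further apart than sampling noise allows (lowest chi-square divided by its degrees of freedom 3.09). Floors of 3 counts cover counting error only.

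All members are named. From each list, the called gene of highest and of lowest fold change in each FcMR comparison is named, plus the 2 genes most like each member. One gene that this rule names is not reported here. Pdgfrb, Dcn, Chil3, Ccr7, Lyz2, the other fibroblast and stromal markers named, and Mmp27 and its neighbours were chosen after their values were seen. The members, lists and tests were chosen with earlier results of these data known. Alternatives were RLE factors, DESeq2 1.42.0, no filter, a filter on mean counts of 10, limma 3.58.1 on log2 of the deposited signal plus 1, a GC correction, a replicate block, only the libraries compared, both libraries out of title order left out, and each library left out. RefSeq promoter windows (GRCm38.p6) were matched by symbol for 7 of 9 members.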

Additional observations from a re-analysis of the deposited data

Results flagged for a closer look

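The effect of FcMR against isotype differed between the times for 3 members, by edgeR's joint test of the difference itself. Between 4 and 24 h it changed on the log2 scale by −1.06 for Mmp8 (SE 0.238, edgeR adjusted p 0.0163), by −1.96 for Mmp13 (SE 0.246, edgeR adjusted p 5.85e-05) and by −0.81 for Timp2 (SE 0.131, edgeR adjusted p 0.000697). Mmp13 is the one whose difference from isotype was called higher at 4 h and lower at 24 h. With the GC correction the changes were −1.33, −2.26 and −0.63, all called.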

How the results depend on the processing

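No member's called value changed sign under the alternatives run. For the genes and members called, these moved past 1.5 times. FcMR against isotype called 2390 genes at 4 h, but 3898 without both libraries out of title order, 3684 with the GC correction, 868 with only the libraries compared and 3881 with the replicate block and GC correction. At 12 h it called 2169, but 3340 with the GC correction and 3511 with the block and GC correction. The FcMR effect over time was called for 1484 genes, but 2616 without the 2 libraries out of order, 2922 with the GC correction, 925 without the filter and 3135 with the block and GC correction. Isotype against untreated at 4 h called 4792, but 2881 with only the libraries compared. Members called at 4 h were 3, but 5 without the 2 libraries out of order. Members called over time were 3, but 5 with DESeq2, limma or the replicate block, and 6 with the GC correction or the block with GC correction. The causes were not tested.

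Leaving out each library in turn gave 1589 to 3151 genes at 4 h and 973 to 2294 over time, with the ends of the latter without FcMR 4 h replicate 2 and isotype 4 h replicate 3. Members called ranged from 3 to 4 at 4 h, 4 to 6 at 12 h, 6 to 8 at 24 h and 2 to 4 over time. Without the filter the median of all genes at 4 h was 0.04 in place of −0.07 for FcMR against isotype and −0.12 in place of 0.00 for isotype against untreated.

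Replicate numbers come from the titles, and no label says that they pair libraries. Deviations of same-numbered FcMR and isotype libraries correlated at means of −0.0708, 0.106 and 0.0138 at 4, 12 and 24 h, and of 6 libraries 1, 3 and 3 correlated best with their own number. With the replicate block, 2541, 2290 and 2911 genes were called for FcMR against isotype and 1620 over time, with 3, 8, 8 and 5 members. The members it added were Mmp9 (−0.67, edgeR adjusted p 0.049) and Mmp14 (0.44, 0.039) at 12 h, and Mmp9 (0.0132) and Mmp19 (0.049) over time. Depth limits Timp3 most, with 2 to 56 counts per library.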

Other observations

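Per kb within each library, Mmp9 relative to its preferred inhibitor Timp1 was 0.936 ± 0.24 (SD, n = 3) in untreated cells, the highest group. It was 0.184 ± 0.0738 with isotype and 0.096 ± 0.0197 with FcMR at 4 h, and 0.31 ± 0.019 and 0.11 ± 0.0276 at 12 h. FcMR libraries were lower than isotype libraries without overlap at both times. At 24 h the ratio was 0.232 ± 0.00927 with isotype and 0.285 ± 0.099 with FcMR, and the groups overlapped. In the main fit Mmp9 itself was not called at 4 or 12 h, when Timp1 was called higher. The ratio combines differences already given and is a description with no test.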
